A study of Mus musculus with 2 samples.

Results

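Integrins and laminins were followed as 1 set of 35 genes, taken by symbol from the 32285 genes counted in each library. All 36 symbols of integrin alpha chains, integrin beta chains and laminin alpha, beta and gamma chains were looked up, and the 35 with at least 20 UMIs (unique molecular identifiers, 1 per captured RNA molecule) over both libraries were kept. Of all genes, 20354 reached that minimum. The set held 16 integrin alpha, 8 integrin beta, 5 laminin alpha, 3 laminin beta and 3 laminin gamma genes. Itgax, with 3 UMIs, was the 1 symbol left out.

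Single cells of mouse embryos, labelled as brain tissue, were profiled on the 10x Genomics Chromium platform in 1 library of embryos with neural tube defects (NTD) and 1 control library. The NTD embryos came from dams kept on a low-folate diet and injected into the peritoneum with 1.5 mg/kg methotrexate (MTX), a folate antagonist, at gestational day 7.5. These embryos are described as smaller and delayed to varying degrees, mainly with malformed hindbrain and spina bifida. The control library is labelled normal saline, with embryos of closed neural tube. Closure was observed at embryonic days 9.5 to 10.5, and the diet of the control dams, the number, sex and exact stage of the embryos, and whether embryos were pooled were not given in the sources used here. With 1 library in each group there was no replicate check and no test: every interval below is a 95% interval of counting error alone, and cells of 1 library are not replicates.

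Integrins are receptors of 1 alpha and 1 beta chain that span the cell membrane and tie the extracellular matrix to actin inside the cell, and the alpha chain largely sets which ligand is bound. Laminins are cross-shaped trimers of 1 alpha, 1 beta and 1 gamma chain, named by their chain numbers, that assemble into the basement membranes under epithelia and around vessels, muscle and the neural tube. In the neural tube wall, progenitor cells anchor their outer end on such a basement membrane.

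After removal of called doublets, 16276 control cells with 41508761 UMIs and 16657 NTD cells with 46826789 UMIs were kept, with medians of 2175 and 2434 UMIs per cell. Ribosomal protein genes took 8.19% of control and 12.7% of NTD UMIs. Joint clustering without the 35 genes gave 27 clusters, of which 20 took 11 class names from marker genes, and 105 cell barcodes occurred in both libraries. The label "brain" did not cover all control cells. Skeletal muscle-like cells numbered 83 control and 3 NTD, liver or yolk sac-like cells 155 and 3, and the 10 liver or yolk sac markers summed to 620 and 80.7 CPM (UMIs per 1e+06 UMIs) over all kept cells. Those liver markers also summed to between 419 and 572 CPM in each of the other named control classes and to at most 78.1 CPM in each other NTD class with at least 50 cells. Classes were compared between libraries where each held at least 50 cells, which left 9 classes. Neural progenitor-like cells came mostly from clusters 12 (1180 of 2561 cells) and 1 (578) among control cells and from clusters 1 (2172 of 4835) and 4 (1775) among NTD cells. Mesenchyme or fibroblast-like cells came mostly from clusters 5 (2163 of 4585) and 11 (1217) among control cells and from clusters 2 (2016 of 3243) and 6 (1146) among NTD cells.

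The promoters of the set differ in sequence. The 250 bases before the start of transcription in RefSeq (GRCm38.p6) were available for 22 of the 35 genes, in 25 windows, and the dinucleotide CG, which reads the same on both strands, was counted in each. The median was 10 CG per window, against 6 in the 32851 windows of all genes, with a range from 0 to 22. The windows of 4 genes are shown because their genes stand for the distributions described next: Itgb1 in every class, Lama5 in epithelium, Lama2 in muscle and mesenchyme, and Itgam in macrophages. CG is in capitals. The window of Itgb1, chr8:128685404-128685653 (plus strand), held 21 CG, and 16.3% of all windows held as many or more. That of Lama5, chr2:180225860-180226109 (minus strand), held 19, with 19.7% of windows at as many or more. That of Lama2, chr10:27616943-27617192 (minus strand), held 0, as did 7.87% of all windows. Its RefSeq start lies inside the gene as annotated by GENCODE. This window begins 2566 bases downstream of the GENCODE start and so lies inside the gene, whereas the other 3 windows end at that start. The window of Itgam, chr7:128062390-128062639 (plus strand), held 6.
Itgb1: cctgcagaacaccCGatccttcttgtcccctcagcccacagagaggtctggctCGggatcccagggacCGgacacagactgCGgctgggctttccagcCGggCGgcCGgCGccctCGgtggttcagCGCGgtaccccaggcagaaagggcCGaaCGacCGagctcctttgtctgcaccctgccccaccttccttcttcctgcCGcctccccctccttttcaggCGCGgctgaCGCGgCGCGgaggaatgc
Lama5: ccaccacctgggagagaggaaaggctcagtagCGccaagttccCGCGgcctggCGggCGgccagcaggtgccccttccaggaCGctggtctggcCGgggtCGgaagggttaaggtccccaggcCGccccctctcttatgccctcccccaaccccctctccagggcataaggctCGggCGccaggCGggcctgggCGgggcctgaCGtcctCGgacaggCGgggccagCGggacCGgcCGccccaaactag
Lama2: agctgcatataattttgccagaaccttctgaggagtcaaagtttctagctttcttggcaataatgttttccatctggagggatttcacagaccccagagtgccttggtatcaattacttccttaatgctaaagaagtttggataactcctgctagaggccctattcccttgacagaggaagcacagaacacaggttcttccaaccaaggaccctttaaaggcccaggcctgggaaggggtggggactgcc
Itgam: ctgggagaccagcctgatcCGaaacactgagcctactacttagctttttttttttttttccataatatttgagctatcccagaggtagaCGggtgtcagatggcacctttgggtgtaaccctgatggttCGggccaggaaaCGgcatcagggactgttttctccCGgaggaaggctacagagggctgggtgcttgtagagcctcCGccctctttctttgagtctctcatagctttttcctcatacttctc

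Itgb1, the beta chain shared by most receptors for laminin, collagen and fibronectin, was present in every named class. Itgb1 (ENSMUSG00000025809) lies on chromosome 8 from 128685654 to 128733200 in GRCm38. In the control library it was highest in endothelial-like cells, at 278 CPM (251 to 308), followed by skeletal muscle-like cells at 238 CPM (185 to 302), and lowest in erythroid-like cells at 93.9 CPM (68.5 to 126). In the NTD library endothelial-like cells were again highest, at 269 CPM (239 to 302), and erythroid-like cells lowest, at 104 CPM (75.6 to 139.7). The intervals of the leading classes overlapped in both libraries, so no single class stood apart. The cells of low-UMI clusters 0 and 3 carried erythroid markers beside those of other tissues. Pooled over these clusters, Itgb1 was at 127 CPM in the control and 103 CPM in the NTD library. A level near these values was thus not particular to any class. Of the pooled cells, cluster 3 held 2367 of 2755 in the control and cluster 0 held 2514 of 2566 in the NTD library.

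The other beta chains were each tied to fewer classes. Itgb8, which pairs with Itgav in a receptor that activates latent TGF-beta, led in neural progenitor-like cells, at 181 CPM (171 to 191) in the control and 115 CPM (109 to 120.4) in the NTD library. The next class in the control library, neural crest or Schwann precursor-like cells, was at 73.8 CPM (57.8 to 92.8), below and apart from it. Itgb5, a vitronectin receptor chain, was highest in epithelium-like cells in both libraries, with 139 CPM (122 to 158) and 87.0 CPM (74.6 to 101). In mesenchyme or fibroblast-like cells Itgb5 was at 74.8 CPM in the control and 79.2 CPM in the NTD library, and in neuron-like cells at 11.8 and 12.6 CPM. Itgb6, a partner of Itgav that is best known from epithelium, was at 220.5 CPM (169 to 282) in the 83 control skeletal muscle-like cells from 63 UMIs. Epithelium-like cells, the next class, held Itgb6 at only 12.3 CPM (7.58 to 18.7) in the control and 10.4 CPM (6.42 to 15.9) in the NTD library.

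Of the blood cell beta chains, Itgb3 and Itgb2 were highest in the macrophage or microglia-like class. Itgb3, which pairs with Itga2b on platelets and with Itgav elsewhere, was at 174 CPM (138 to 216) in control and 101 CPM (66.1 to 148) in NTD cells of that class, and at most 6.26 CPM in each other named control class. Itgb2, the leukocyte beta chain, had 12 UMIs in all kept control cells and 10 in NTD cells, and reached 8.80 and 11.7 CPM in the macrophage or microglia-like class. Itgb7, another leukocyte chain, had 37 and 26 UMIs in all and no control class above 6.26 CPM, with 0 UMIs in control macrophage or microglia-like cells. Itgb4, the hemidesmosome chain that pairs only with Itga6, was highest in the liver or yolk sac-like and epithelium-like control cells, at 12.7 and 12.3 CPM, with overlapping intervals.

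Among alpha chains, 4 led in endothelial-like cells, the lining of vessels. The collagen receptor chains Itga1 and Itga2 were at 177 CPM (155 to 201) and 137 CPM (118 to 158) in control endothelial-like cells. Itga2 was at most 16.2 CPM in every other control class, while Itga1 was also high in cardiac muscle-like cells, at 118 CPM (77.3 to 173), an interval that overlapped the endothelial one. In NTD endothelial-like cells Itga1 was at 184 CPM (159 to 212) and Itga2 at 86.8 CPM (70.0 to 106). Itga5, the fibronectin receptor chain, was highest in the same class in both libraries, at 121.2 CPM (103 to 141) in control and 67.0 CPM (52.3 to 84.5) in NTD cells, with intervals that overlapped those of cardiac muscle-like cells. Itga9, a receptor chain for tenascin and related ligands, was at 301 CPM (272 to 332.1) in control and 228 CPM (201 to 259) in NTD endothelial-like cells and, in the next control class, mesenchyme or fibroblast-like cells, at 181 CPM (173 to 188).

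The laminin-binding alpha chains differed in how widely they were found, Itga6 in most classes and Itga3 and Itga7 in few. Itga6, which with Itgb1 or Itgb4 binds most laminins, was at 207 CPM in control macrophage or microglia-like, 205 CPM in endothelial-like, 182 CPM in cardiac muscle-like and 173 CPM in neural crest or Schwann precursor-like cells. These 4 classes had overlapping intervals. In neural progenitor-like cells Itga6 was at 44.3 CPM (39.6 to 49.3) in the control and 36.1 CPM (33.0 to 39.4) in the NTD library, and in erythroid-like cells at 12.5 and 9.46 CPM. Itga3, an epithelial laminin receptor chain, was highest in epithelium-like cells in both libraries, with 64.2 CPM (52.7 to 77.3) in control and 28.7 CPM (21.8 to 37.1) in NTD cells. Itga7, the laminin receptor chain of muscle, was at 42.0 CPM (21.7 to 73.4) in skeletal muscle-like cells, and at 0 UMIs in control cells of 7 of the other 10 classes, which allows up to 13.7 CPM in the smallest of them. Neuron-like cells also held Itga7, at 12.2 CPM in the control and 4.69 CPM in the NTD library. Of these UMIs, 52 of 57 in the control and 25 of 29 in the NTD library lay in cluster 18, the neuron-like cluster with 4 sensory neuron markers, at 48.1 CPM (35.9 to 63.0) and 27.1 CPM (17.5 to 40.0).

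Itga4, Itga8 and Itga2b marked further classes. Itga4, which binds fibronectin and the vessel ligand VCAM1, was at 213.3 CPM (173 to 260.2) in control macrophage or microglia-like cells, 112 CPM (76.6 to 158) in skeletal muscle-like cells and 95.01 CPM (76.8 to 116) in neural crest or Schwann precursor-like cells. In the NTD library the macrophage and neural crest classes were at 81.7 CPM (50.6 to 125) and 62.6 CPM (44.9 to 85.0), with overlapping intervals. Itga8, the nephronectin receptor chain, was highest in mesenchyme or fibroblast-like cells, at 81.3 CPM (76.4 to 86.4) in control and 80.0 CPM (74.5 to 85.7) in NTD cells. Within that class it was highest in cluster 2, whose top genes included Alx1 and Alx4 of the face, at 135 in control and 104 CPM in NTD cells. Itga2b, the platelet chain, was at 213.3 CPM (173 to 260.2) in control and 144 CPM (101 to 198) in NTD macrophage or microglia-like cells, with erythroid-like cells next at 39.7 and 18.9 CPM. Itgav, the alpha chain with the most partners, was present in every named class, from 27.0 CPM in neuron-like to 97.4 CPM in epithelium-like control cells, with endothelial-like cells at 97.1 CPM.

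The macrophage or microglia-like class held markers of megakaryocytes, the cells that make platelets, and its integrins divided by them. All 8 megakaryocyte markers had UMIs in the control cells of the class, summing to 475 CPM (414 to 543), and 7 of 8 did in NTD cells, summing to 700.1 CPM (602 to 810), with Gp1bb at 0. Of the 171 control cells, 20 held a UMI of Ppbp, Gp9, Gp1bb, Gp1ba or Treml1 and none of Csf1r, C1qa, C1qb, C1qc, Cx3cr1 or Mrc1, a division made after the class was seen. Those 20 cells held 52 of the 97 Itga2b UMIs and 47 of the 79 Itgb3 UMIs of the class. The 76 cells with neither set held 39 and 25, and the 72 cells with macrophage markers alone held 6 and 2, but 12 of the 14 UMIs of Itgam, the alpha chain of a macrophage complement receptor, and 33 of the 97 of Itga4, of which 63 lay in the cells with neither set. In the NTD library 9 cells had megakaryocyte markers alone, with 18 of 37 Itga2b and 14 of 26 Itgb3 UMIs, 19 cells with neither set had 18 and 9, and 49 cells with macrophage markers alone had 1 and 3. Pf4, 1 of the 8 summed markers, had 41 control and 60 NTD UMIs in the cells with megakaryocyte markers alone. With macrophage markers alone it had 19 and 30, and with neither set 28 and 29. The higher NTD sum of the 8 markers therefore rested in large part on 1 gene. The platelet pair of Itga2b and Itgb3 was thus counted mostly outside the cells with macrophage markers alone, which held most UMIs of Itgam. Itgal, the lymphocyte chain, had 16 and 2 UMIs in the class.

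The 3 remaining alpha chains had no control class at 50 CPM. Itga11, a fibrillar collagen receptor chain, was highest in skeletal muscle-like and mesenchyme or fibroblast-like control cells, at 28.0 and 25.0 CPM. Itga10 did not exceed 6.999 CPM in any control class, and Itgae, which overlaps Haspin on the opposite strand, did not exceed 17.6 CPM. Itga1 overlaps Pelo on the same strand and Itga4 overlaps Cerkl on the opposite strand, and how reads of overlapping genes were divided was not given in the sources used here.

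Laminin alpha chains differed sharply by tissue. Lama2, the main laminin alpha chain of muscle, was at 1085 CPM (967 to 1213) in skeletal muscle-like cells from 310 UMIs. Of these cells, 82.9% (73.0 to 90.3%) held a Lama2 UMI when each cell was thinned to 1589 UMIs (94.0% unthinned), against 2.34% (0.486 to 6.70%) of erythroid-like cells (4.33% unthinned), with median depths of 3172 and 1647 UMIs. Cardiac muscle-like and mesenchyme or fibroblast-like control cells were next for Lama2, at 178 CPM (126 to 243) and 174 CPM (167 to 182). Lama2 (chromosome 10 from 26980036 to 27619758) spans the longest stretch of genome of the 35 genes.

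Lama4, the laminin alpha chain of vessels and peripheral nerve, was highest in endothelial-like cells of both libraries, at 402 CPM (369 to 438) in control and 264 CPM (234 to 297) in NTD cells. Next came neural crest or Schwann precursor-like cells, at 143 CPM (120.0 to 168) and 115 CPM (90.1 to 144), and apart from the first. Lama1, the laminin alpha chain of early embryonic basement membranes, was highest in neural progenitor-like cells, at 171 CPM (162 to 181) in control and 101 CPM (95.8 to 106) in NTD cells. In mesenchyme or fibroblast-like cells it was at 89.1 CPM (84.0 to 94.5) and 80.1 CPM (74.6 to 85.8), and there it was highest in cluster 6, at 167 and 119 CPM. Lama5, an epithelial chain, was highest in epithelium-like cells, at 103 CPM (88.6 to 119.6) and 46.0 CPM (37.1 to 56.3). Lama3, a chain of the skin laminin, had its highest control level in endothelial-like cells, at 18.8 CPM from 25 UMIs, and was at 7.001 CPM in control and 0 UMIs in NTD epithelium-like cells, which allows up to 1.48 CPM.

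The beta and gamma chains were spread more widely. Lamb1 had overlapping intervals in its 3 leading control classes, at 106 in endothelial-like, 95.6 in cardiac muscle-like and 93.9 in epithelium-like cells. Lamc1, which most laminins contain, was highest in endothelial-like control cells at 183 CPM (161 to 207) and was at 49.0 CPM or more in every named control class. Lamc3 was highest in mesenchyme or fibroblast-like cells, at 18.7 and 11.6 CPM, mainly in cluster 6, at 50.4 CPM (40.5 to 62.0) and 25.6 CPM (20.8 to 31.2), and in the mostly control cluster 11, at 37.1 CPM. Lamb2 and Lamb3 did not exceed 29.6 and 10.5 CPM in any control class.

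**Figure D1:**
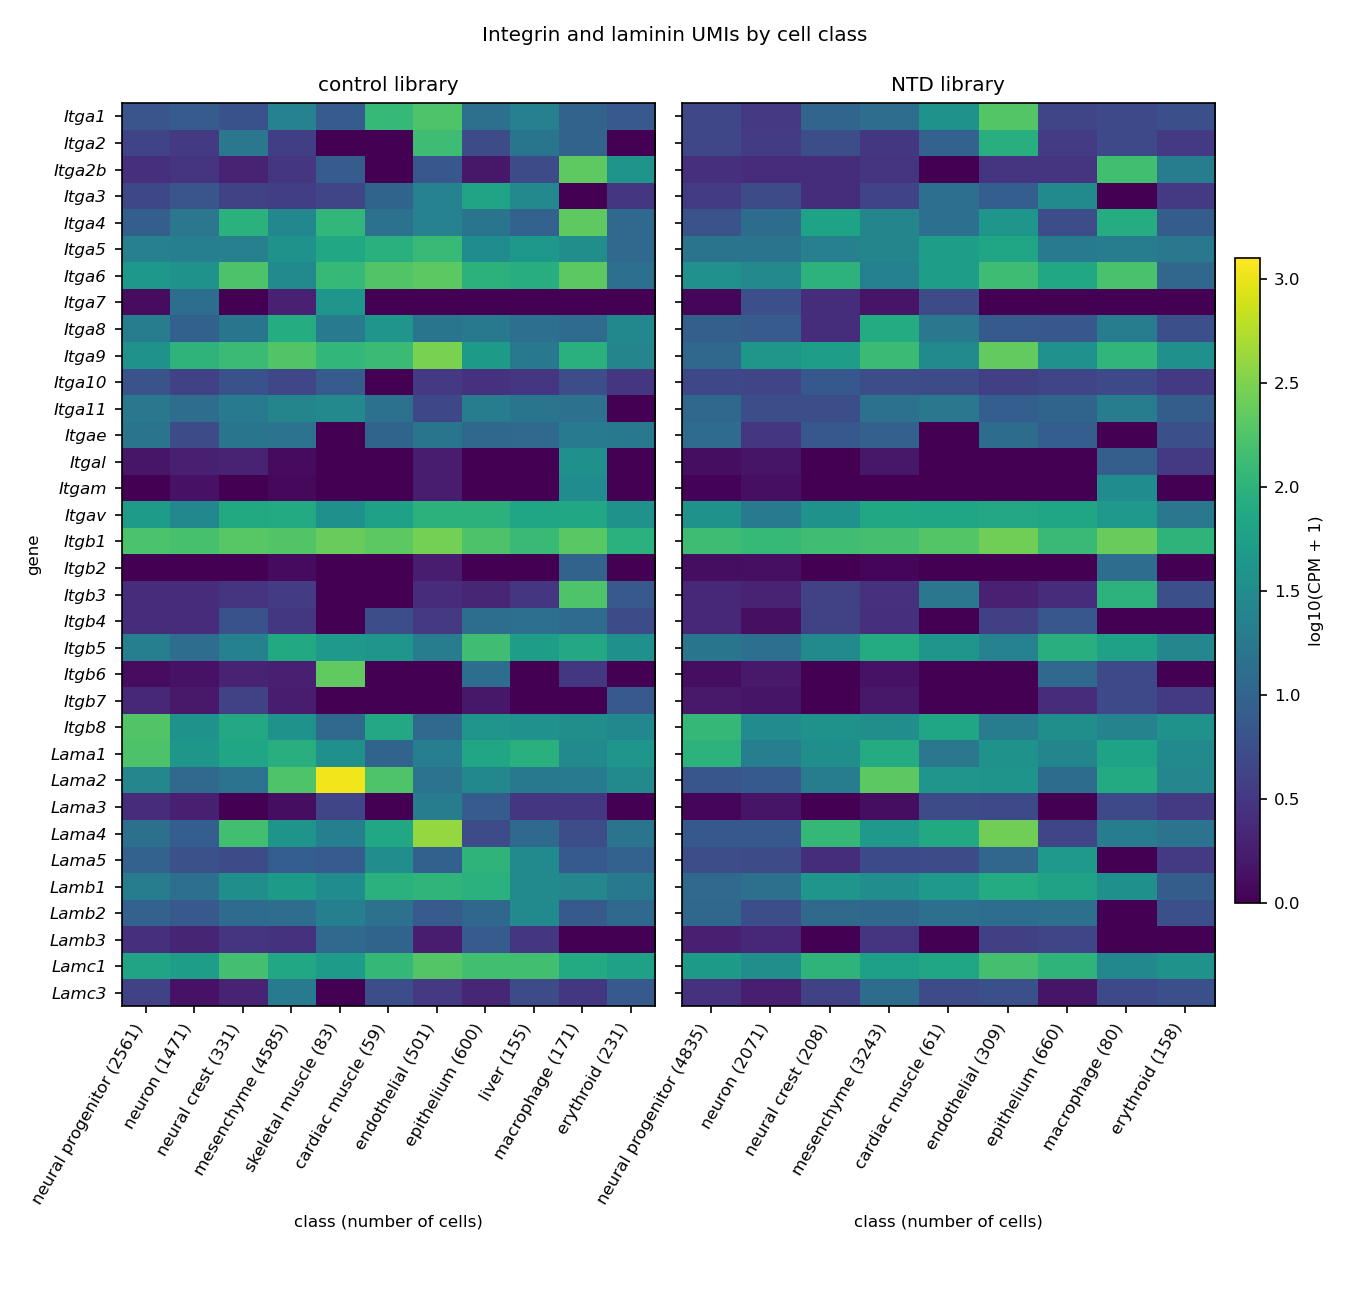
Level of genes of the set (rows) in each named class of at least 50 cells (columns, with the number of cells), as log10 of CPM plus 1, in the control (left) and NTD (right) library. Itgb1, Itgav and Lamc1 are bright in every column, Lama2 is brightest in skeletal muscle-like cells, and Itga2b and Itgb3 are brightest in the macrophage or microglia-like column.

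Chain sets were then read from these levels. A class was said to hold an integrin pair or a laminin trimer when each chain was at 20 CPM or more, which shows RNA for every chain and not an assembled protein. Over the 9 classes with at least 50 cells in both libraries, 65 combinations of the 23 listed integrin pairs and a class were held by control cells and 50 by NTD cells, 49 of them by both. Of the 16 held in the control library alone, 4 were in erythroid-like cells, 3 in neural progenitor-like and 3 in neuron-like cells. Several rested on a chain close to the minimum: in neural progenitor-like cells the pair of Itga5 and Itgb1 had Itga5 at 21.5 and 14.7 CPM, and that of Itgav and Itgb5 had Itgb5 at 20.6 and 15.1 CPM. The pair of Itga9 and Itgb1 was farther from it, with Itga9 at 38.1 and 9.71 CPM. Erythroid-like cells held 5 pairs among control and 1 among NTD cells. A level of 20 CPM was thus also reached in the class taken here to lack integrins other than Itga4. Itgb1 was itself at 93.9 and 104 CPM there, so this class was not a clean background for pairs with Itgb1.

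Laminin trimers numbered 14 combinations in each library, 12 of them shared. The trimer of Lama4, Lamb1 and Lamc1 was held by endothelial-like, neural crest or Schwann precursor-like, cardiac muscle-like and mesenchyme or fibroblast-like cells of both libraries. That of Lama5, Lamb1 and Lamc1 was held by epithelium-like cells of both libraries, and that of Lama1, Lamb1 and Lamc1 by 5 classes of both. The 5 were endothelial-like, epithelium-like, mesenchyme or fibroblast-like, neural crest or Schwann precursor-like and macrophage or microglia-like cells. In the last of these, Lama1 was at 28.6 CPM in the control library, under the 41.7 CPM of erythroid-like cells, and Lamb1 was at 26.4 CPM, beside 27.1 CPM in the low-UMI clusters. Control endothelial-like cells held Lama1 at 20.3 CPM, close to the minimum and under erythroid-like cells and the low-UMI clusters (21.3 CPM). In NTD endothelial-like cells Lama1 was at 36.8 CPM. NTD epithelium-like cells held it at 25.7 CPM, under the 28.4 CPM of NTD erythroid-like cells. Skeletal muscle-like cells, in the control library, held 6 trimers, those of Lama1, Lama2 or Lama4 with Lamb1 or Lamb2 and Lamc1. Lamb2 was there at 20.998 CPM (7.71 to 45.7), an interval that spanned the minimum, and Lama4 was also close to the minimum. The trimers with Lamb2 or Lama4 therefore rested on a chain that barely reached it. At this minimum neural progenitor-like and neuron-like cells held none in either library. In neural progenitor-like cells the chain that kept the trimer of Lama1 below the minimum was Lamb1, at 19.001 CPM (16.0 to 22.4) in control and 10.6 CPM (8.94 to 12.4) in NTD cells. The control interval spanned the minimum. In neuron-like cells Lamb1 was at 12.4 CPM in the control and 12.9 CPM in the NTD library. With a minimum of 10 CPM, progenitor-like and neuron-like cells of both libraries held this trimer, and so did control erythroid-like cells.

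Receptors for laminin were set against these sources. Of the listed laminin receptors, the pair of Itga6 and Itgb1 was held by 10 of 11 control classes and 8 of 9 NTD classes, all but erythroid-like cells. The low-UMI clusters reached 20 CPM for both chains too, with Itga6 at 25.1 CPM in the control and 20.3 CPM in the NTD library. Itga6 lay above these clusters, beyond the intervals, in 9 of 11 control and 6 of 9 NTD classes. Mesenchyme or fibroblast-like cells held Itga6 at only 28.3 and 22.2 CPM. The pair of Itga3 and Itgb1 was held by 3 control classes and 1 NTD class, and that of Itga7 and Itgb1 by 1 and 0. The pair of Itga6 and Itgb4 was held by none. In each library the 2 classes with a laminin receptor and no laminin trimer were neural progenitor-like and neuron-like cells. This split rested on the minimum of 20 CPM, since at 10 CPM both neural classes held the trimer of Lama1, Lamb1 and Lamc1 in both libraries.

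**Figure D2:**
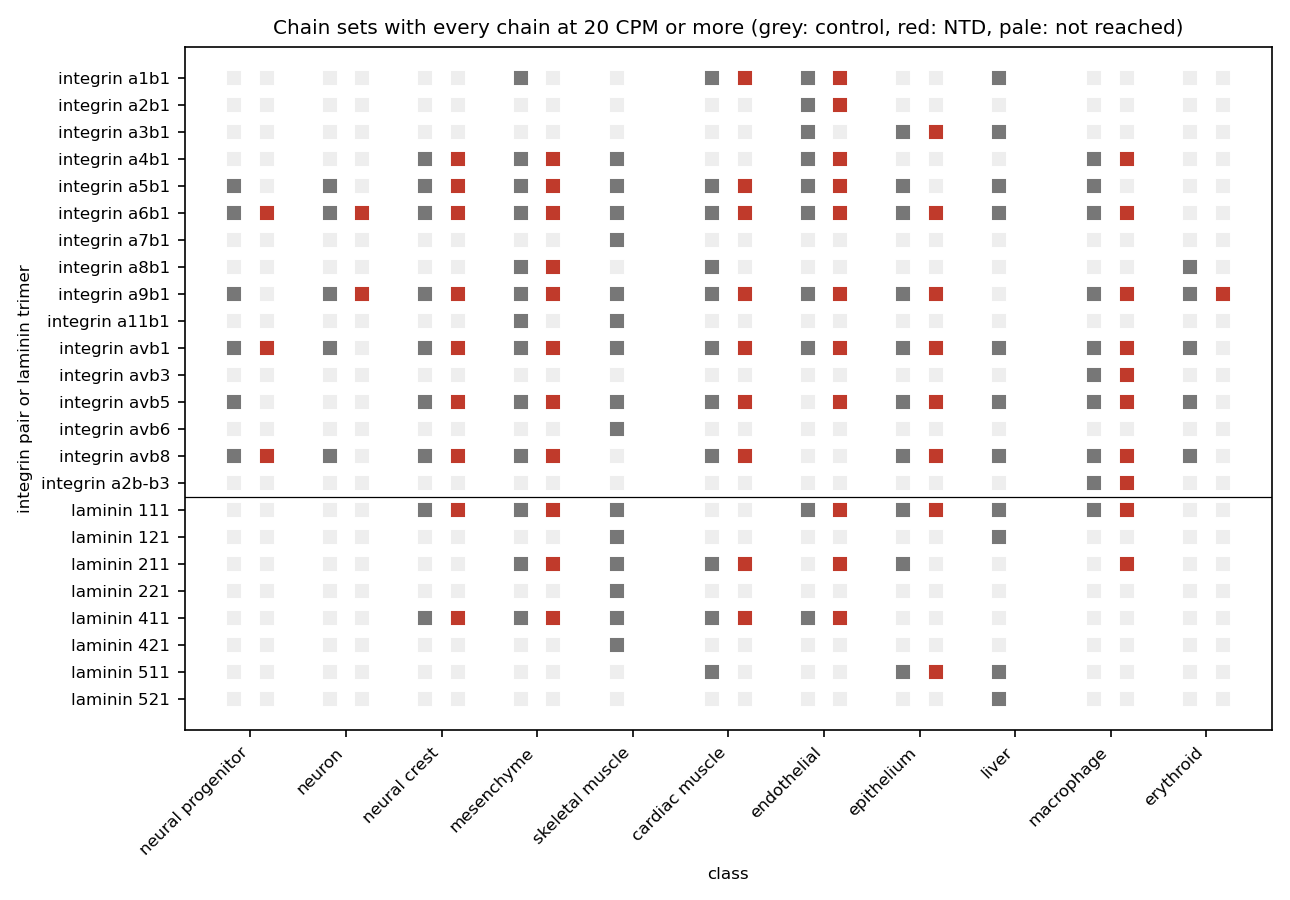
Integrin pairs (above the line) and laminin trimers (below it) for which every chain reached 20 CPM, by class, with control squares in dark grey, NTD squares in red and pale squares where a chain was lower. Gaps mark the 2 classes with fewer than 50 NTD cells, and no laminin square is filled in the neural progenitor or neuron columns.

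The comparison of the libraries asked how these genes differed between NTD and control embryos. Over all kept cells the 35 genes took 0.103% of UMIs in the control and 0.0688% in the NTD library. Called here means at least 1.5-fold apart between the libraries, with CPM scaled to all UMIs and 0.5 counts added. Of the 35 genes, 24 were lower in NTD cells and 0 higher, against 22.3% and 5.39% of the 19881 genes measured. The median log2 ratio of NTD over control was -0.71 for the 35 and -0.25 for all genes. With TMM scaling, which centres the bulk of genes, it was -0.45 and 0.01, with 14 genes lower, against 12.7% of all genes. In whole-library values, fewer cells of a type and less RNA per cell cannot be told apart.

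The lowest whole-library ratios were those of Lama3, Itgb6, Itga7, Lama5 and Itga9. Lama3 went from 2.58 CPM (2.11 to 3.11) to 0.705 CPM (0.485 to 0.990), a log2 ratio of -1.86 (-2.48 to -1.30). Itgb6 went from 2.53 to 0.833 CPM, a ratio of -1.59 (-2.17 to -1.06), where skeletal muscle-like cells held 63 of its 105 control UMIs. Itga7 had -1.34 (-1.93 to -0.79), Lama5 -1.18 (-1.39 to -0.97) and Itga9 -1.17 (-1.25 to -1.10). Nearest to 0 with all UMIs as the scale were Itga10, with 0.11 (-0.21 to 0.44), and Itgb8, with -0.13 (-0.20 to -0.05), which turned positive at 0.14 with TMM scaling. The ratio of Itgb8 stood beside a share of neural progenitor-like cells of 15.7% in the control and 29.0% in the NTD library. Itgb1 had -0.35 (-0.40 to -0.30).

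Within neural progenitor-like cells, the wall of the neural tube, 14 of the 28 measured genes were lower in NTD cells and 0 higher. The background was 17.3% lower and 6.77% higher of 16077 genes, and the median log2 ratio was -0.57 for the set against -0.21 for all genes. With TMM scaling 7 were lower, against 9.26% of all genes, and the medians were -0.33 and 0.02. Of the 14 called genes, the intervals of Itga1, Itga3, Lamb3 and Lamc3 held 0.

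The lowest ratios belonged to Lama2 and Itga9. Lama2 was at 26.1 CPM (22.6 to 30.02) in control and 5.83 CPM (4.63 to 7.24) in NTD progenitor-like cells, a log2 ratio of -2.16 (-2.55 to -1.78). Itga9 was at 38.1 CPM (33.8 to 42.8) and 9.71 CPM (8.14 to 11.5), a ratio of -1.97 (-2.28 to -1.67), and Itga8 at 19.8 and 7.70 CPM, a ratio of -1.36 (-1.74 to -0.99). All 3 are genes whose highest levels lay in mesenchyme, muscle or vessel classes, and the 13 mesenchyme markers, all with UMIs, summed to 490 CPM (474 to 506) in control and 319 CPM (310 to 329) in NTD progenitor-like cells. The part of such RNA in these ratios was not tested. With called doublets kept the ratios of Lama2 and Itga9 were -1.01 and -0.75, and with finer clusters (Leiden resolution 2) they were -0.82 and -1.04. Itga8 had -0.57 with called doublets kept, which is under 1.5-fold, and -0.65 with finer clusters.

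The 2 genes that led in this class were lower by less. Itgb8 had 1352 UMIs in control and 1593 in NTD progenitor-like cells, a log2 ratio of -0.66 (-0.76 to -0.55), so control cells held 1.58-fold more. With TMM scaling it was -0.42 and relative to genes of like genomic span -0.33, both under 1.5-fold. A UMI of Itgb8 was held by 23.8% (21.99 to 25.7%) of thinned control and 14.8% (13.8 to 15.8%) of thinned NTD cells (33.7% and 24.9% unthinned), against 6.25% (2.74 to 11.9%) and 4.43% (1.80 to 8.92%) of erythroid-like cells (5.63% and 7.59% unthinned). Median depths were 2214 and 2499 UMIs in progenitor-like and 1647 and 2128 UMIs in erythroid-like cells. Lama1 had a ratio of -0.76 (-0.87 to -0.65), so control cells held 1.70-fold more, and -0.53 with TMM scaling and -0.41 for like span were again under 1.5-fold. Itgb1 had -0.29 (-0.39 to -0.18), Lamc1 -0.41 (-0.58 to -0.24) and Itgav -0.44 (-0.63 to -0.25). Itga6 had -0.30 (-0.50 to -0.09), which was 0.05 relative to genes of like genomic span. Lamb2, which had the highest ratio of the set here, was at 8.56 and 10.3 CPM, with 0.26 (-0.17 to 0.71).

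Cluster 12, a progenitor-like cluster with Scube2 as its top gene and Hoxd4, Hoxb6 and Hoxc4 among its top 10, stood apart from the other 3. It held 1180 control and 48 NTD cells, and the 31 Hox genes of groups 4 to 13 summed to 1399 CPM in its control cells against 235 to 254 CPM in control cells of clusters 1, 4 and 13. Itgb8 was at 224 CPM (210.1 to 239) in its control cells, and at 98.7 CPM (82.8 to 117), 173 CPM (149 to 199) and 106 CPM (84.9 to 132) in control cells of clusters 1, 4 and 13. In NTD cells of clusters 1, 4 and 13 Itgb8 was at 92.9 CPM (85.5 to 101), 156 CPM (145 to 167) and 84.4 CPM (73.3 to 96.8), and each of these intervals overlapped that of the same cluster's control cells. Over these 3 clusters its log2 ratio was -0.14 (-0.29 to 0.02), which was 0.07 with TMM scaling.

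With cluster 12 left out, 6 of 27 measured genes were lower and 0 higher, against 13.3% lower and 4.82% higher of all genes, and the median was -0.44 against -0.18. With TMM scaling 3 were lower and 1 was higher, against 7.07% and 10.3%. The 6 were Itga4, Itga6, Itga8, Itga9, Lama2 and Lama5. Lama1 then had -0.44 (-0.59 to -0.28) and was lower in each of the 3 clusters, from 116 to 84.9 CPM in cluster 1, from 159 to 127 in cluster 4 and from 141 to 88.1 in cluster 13. Itga9 had -1.08 (-1.51 to -0.62) and Lama2 -1.07 (-1.63 to -0.47). Itga6 had a lower ratio than over all 4 clusters, -0.59 (-0.84 to -0.34), and was highest in cluster 1, at 89.3 in control and 49.7 CPM in NTD cells. Posterior Hox sums still differed in the 3 clusters, at 235 to 254 CPM in control and 15.6 to 21.9 CPM in NTD cells. The control sums were alike although the top genes differed, with Nkx2-1 in cluster 1 and Pax5 in cluster 13. Whether these sums show the position of these cells along the body axis was not tested. Position along the body axis cannot be told apart from the condition.

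**Figure D3:**
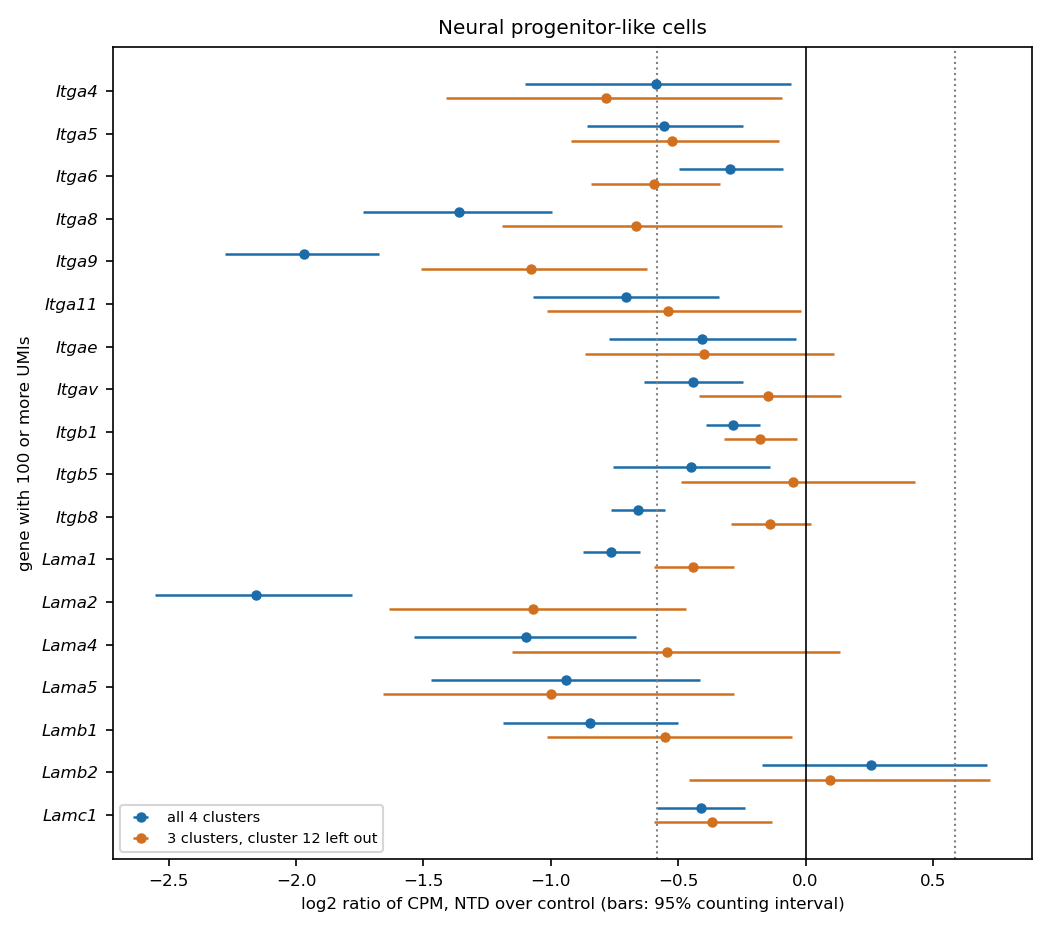
Log2 ratio of CPM, NTD over control, with 95% counting intervals, for the genes with at least 100 UMIs in neural progenitor-like cells, over all 4 clusters (blue) and without cluster 12 (orange). Dotted lines mark 1.5-fold, and Itgb8, Itga9 and Lama2 lie nearer to 0 in orange than in blue.

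**Figure D4:**
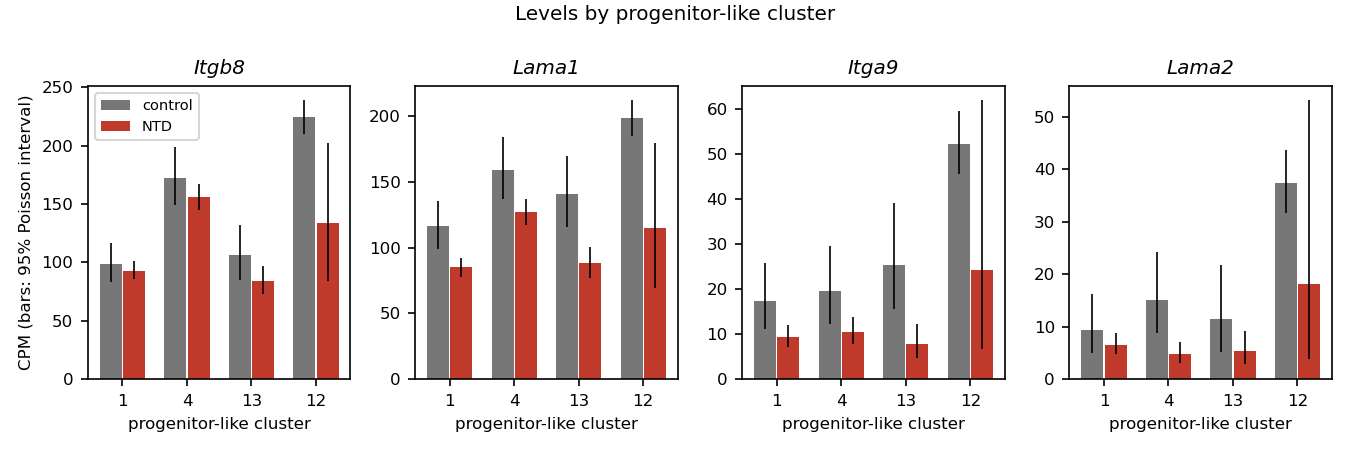
Level in CPM with 95% Poisson intervals of Itgb8, Lama1, Itga9 and Lama2 in the 4 progenitor-like clusters, control in grey and NTD in red. The highest bars are those of control cells of cluster 12, where the NTD bars rest on 48 cells.

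Outside the progenitor-like class most log2 ratios were negative too, as were those of most genes with all UMIs as the scale. Over the other 8 classes, 142 combinations of a gene and a class were measured, of which 108 had a negative log2 ratio, 67 an interval below 0 and 6 an interval above 0. Of all genes measured, between 55.7% and 65.6% had a negative ratio in these classes. With TMM scaling 101 of the 142 were negative, against 48.1% to 53.5% of all genes. Itgb1 was called in none of the 9, with ratios from -0.49 to 0.24. Lamc1 and Itga11 had negative ratios in each class in which they were measured, 9 and 5 classes, by each scaling. With cells thinned to a matched depth, however, Lamc1 had 0.32 (-0.29 to 0.93) in neural crest or Schwann precursor-like cells. That interval held 0, and the thinned ratio of Lamc1 was negative in each other class where it was measured. Itga6 had negative ratios in 8 of 8 classes with both UMI scalings, and in 7 of 8 relative to genes of like span. These classes share their libraries and are not replicates.

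Epithelium-like cells, which line the body surface and tubes, had 13 of 22 measured genes lower in NTD cells and 0 higher, against 19% and 8.05% of all genes. The 3 epithelial chains Lama5, Itga3 and Itgb5 had log2 ratios of -1.16 (-1.55 to -0.80), -1.16 (-1.65 to -0.69) and -0.67 (-0.96 to -0.39). Lama1 went from 65.3 CPM (53.8 to 78.6) to 25.7 CPM (19.2 to 33.7), a ratio of -1.34 (-1.85 to -0.86). With TMM scaling 11 genes were lower, against 11.3% of all genes. The 13 mesenchyme markers summed to 460 CPM (429 to 494) in control and 329 CPM (305 to 355) in NTD epithelium-like cells, and their part in the ratios was not tested.

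Endothelial-like cells went both ways, with 7 of 21 lower and 5 higher, against 14.9% and 8.32% of all genes. With TMM scaling 4 were lower and 5 higher, against 11.5% and 10.9%. With each cell thinned to 1589 UMIs, 14 genes were measured, 4 lower and 0 higher. The share over all genes was not computed for thinned cells, so these counts have no background. Of the chains highest in this class in the control library, Lama4 had -0.60 (-0.82 to -0.39), Itga2 -0.65 (-1.04 to -0.29) and Itga5 -0.85 (-1.28 to -0.44), while Itga1 had 0.06 (-0.22 to 0.34) and Itgb1 -0.05 (-0.28 to 0.18), or 0.04 with TMM scaling. Itga6, whose level here was close to that of the macrophage or microglia-like class, had -0.60 (-0.90 to -0.30). The 5 higher genes were Itga4, Itgb8, Lama1, Lama2 and Lamb2, and the intervals of Itgb8 and Lamb2 held 0. After thinning Itga4 had 0.23 (-0.80 to 1.21) and Lama1 0.21 (-1.03 to 1.40), and the other 3 were under 20 UMIs. Lama2 was at 14.3 CPM (8.61 to 22.3) in control and 39.6 CPM (28.6 to 53.6) in NTD cells. A UMI of it was held by 0.676% (0.140 to 1.96%) of thinned control and 2.27% (0.916 to 4.61%) of thinned NTD endothelial-like cells (2.40% and 7.77% unthinned), against 2.34% (0.486 to 6.70%) and 3.80% (1.41 to 8.08%) of erythroid-like cells (4.33% and 4.43% unthinned), so at a matched depth it was at or below background in both. The 13 mesenchyme markers summed to 420.7 CPM (387 to 457) in control and 545 CPM (502 to 592) in NTD endothelial-like cells.

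In neuron-like cells 9 of 23 genes were lower and 0 higher, against 16.4% and 8.82%, or 6 lower with TMM scaling, against 10.2%. The lower genes included Itga9, at 102 CPM (93.3 to 112) in control and 42.7 CPM (37.7 to 48.2) in NTD cells, a log2 ratio of -1.26 (-1.48 to -1.04). Itga9 was highest in clusters 18 and 20, the neuron-like clusters with sensory neuron markers and with Chat among the top genes, at 179 and 167 CPM in control and 121.4 and 166 CPM in NTD cells. In clusters 8 and 15 it was at 34.5 and 42.1 CPM in control and 25.3 and 14.2 CPM in NTD cells. Cluster 20 held 309 control and 85 NTD cells, and the part of this makeup in the class ratio was not tested. Neural crest or Schwann precursor-like cells had 7 of 14 lower and 0 higher, against 18.6% and 10.3% (with TMM scaling 6 lower and 1 higher, against 13.5% and 13.8%), among them Itga4 with -0.59 (-1.17 to -0.06), Itga6 with -0.79 (-1.23 to -0.38) and Itgav with -1.03 (-1.78 to -0.37). Lama4, the laminin chain highest there among neural derivatives, had -0.31 (-0.74 to 0.10).

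Over all their clusters, mesenchyme or fibroblast-like cells had the smallest gap between the medians of the set and of all genes, at -0.23 and -0.17. Of 27 genes 6 were lower and 0 higher, against 14.8% and 6.74%. The 6 were Itga1, Itga5, Itga11, Itgae, Lama5 and Lamc3. Itga8, which leads in this class, had -0.02 (-0.16 to 0.11), or 0.14 with TMM scaling, and Lama2 had 0.27 (0.18 to 0.35). Without clusters 5 and 11, with 97.3% and 98.2% control cells, Lama2 had -0.16 (-0.28 to -0.03), or 0.04 with TMM scaling. Itga4 had -0.15 (-0.40 to 0.09) with these clusters and -0.91 (-1.21 to -0.61) without them, and Lamc3 had -0.68 (-1.02 to -0.36) and -1.32 (-1.72 to -0.91). Without these clusters 7 of 27 genes were lower and 0 higher, against 13.1% and 5.77%. The medians were then farther apart, at -0.38 for the set and -0.17 for all genes.

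The 3 smallest of the 9 classes gave few measured genes. Cardiac muscle-like cells, 59 and 61, had 7 of 11 lower and 0 higher, against 20% and 16.3%, with Lama2 at 178 CPM (126 to 243) in control and 41.7 CPM (19.97 to 76.6) in NTD cells and Itga6 at 182 CPM (130.1 to 248) and 54.1 CPM (28.8 to 92.6). Macrophage or microglia-like cells, 171 and 80, had 4 of 15 lower and 2 higher, against 24.2% and 11.8%. After thinning 3 of 8 were lower and 0 higher, with no share over all genes computed. There Itga4 had -1.36 (-2.14 to -0.69) and Itgb3 -0.76 (-1.48 to -0.12). Cells with megakaryocyte markers alone were 20 of the 171 control and 9 of the 80 NTD cells. The part of such cells in these ratios was not tested. Lama2 had 2.09 (0.90 to 3.54) in macrophage or microglia-like cells from 8 and 20 UMIs. Its thinned shares of cells were 2.84% (0.778 to 7.10%) and 3.75% (0.780 to 10.6%), no higher than the erythroid-like shares beyond their intervals. Erythroid-like cells had 3 of 9 lower and 0 higher, against 26.9% and 8.26%, and the intervals of those 3, Itga2b, Itgav and Lamc1, held 0. With TMM scaling 2 were lower and 2 higher, against 16.1% and 16.6%.

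**Figure D5:**
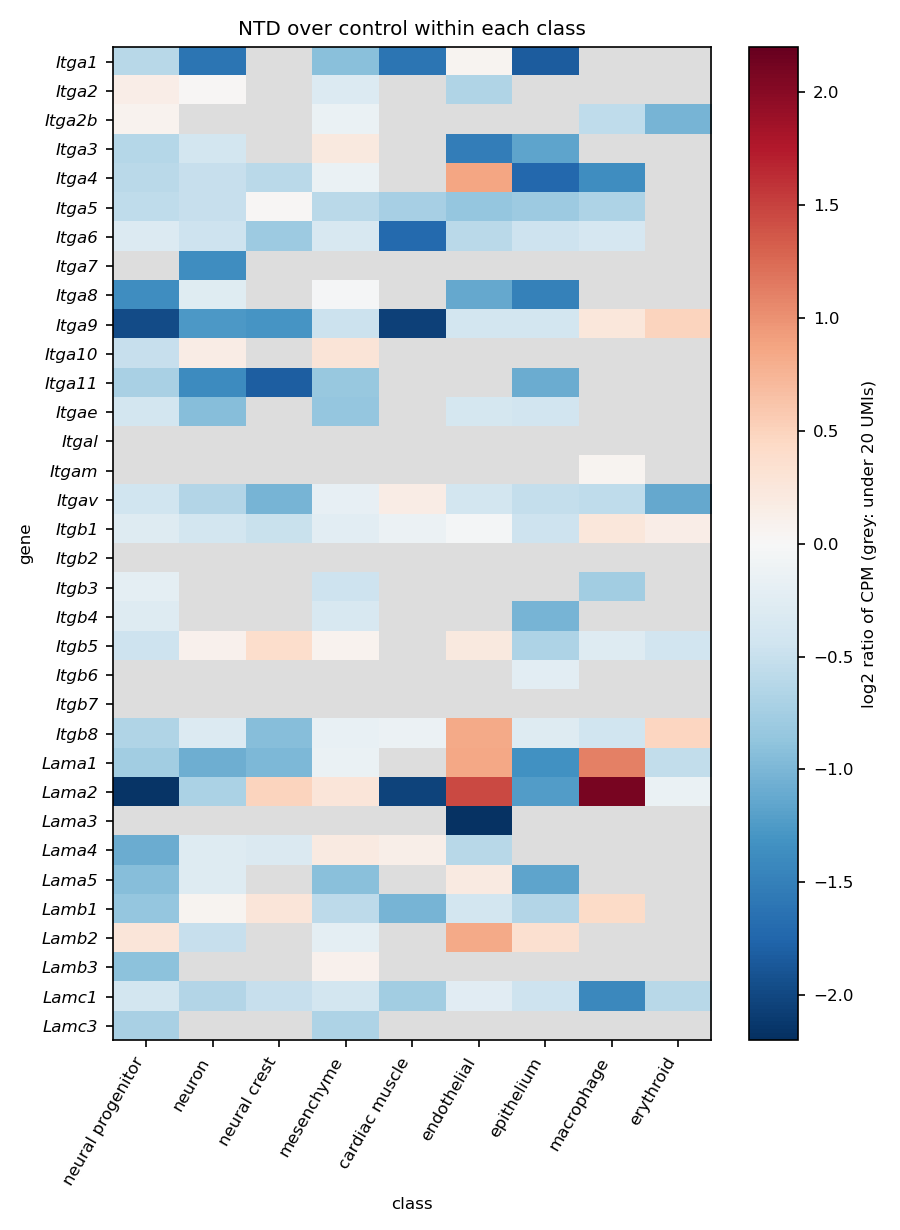
Log2 ratio of CPM, NTD over control, for genes of the set (rows) in the 9 classes with at least 50 cells in each library (columns). Blue is lower and red higher in the NTD library, grey is under 20 UMIs, and the deepest red cells of Lama1 and Lama2 stand in the endothelial and macrophage columns, with the same sign under TMM scaling.

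Partner genes were read beside the set, from lists chosen by function with earlier results of these data known. The adhesion complex links integrin tails to actin, and in neural progenitor-like cells 6 of its 23 measured genes were lower and 0 higher, against the 17.3% and 6.77% of all genes, with a median log2 ratio of -0.33. Its 5 most abundant members were Ptk2, the focal adhesion kinase, with -0.32 (-0.39 to -0.25), Lims1 with -0.39 (-0.49 to -0.30), Actn4 with -0.46 (-0.58 to -0.35), Fermt2, the integrin-activating kindlin, with -0.14 (-0.27 to -0.01), and Parva with -0.33 (-0.47 to -0.18). With TMM scaling Fermt2 had 0.10, and relative to genes of like span Ptk2 had 0.09 and Parva 0.08. Basement membrane partners had 3 of 14 lower and 0 higher with a median of -0.42. Of these the collagen IV gene Col4a1 had -0.38 (-0.57 to -0.19), Col18a1 -0.39 (-0.53 to -0.25), Fras1 -0.69 (-0.84 to -0.54), Frem1 -0.58 (-0.80 to -0.36) and Sparc 0.15 (-0.01 to 0.30).

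Other integrin ligands had 7 of 15 lower and 0 higher with a median of -0.48. Tgfb2, the gene of a TGF-beta ligand, was at 36.7 in control and 13.4 CPM in NTD progenitor-like cells, a log2 ratio of -1.45 (-1.73 to -1.18). Postn, which is also 1 of the mesenchyme markers, had -1.24 (-1.62 to -0.87), Emilin1 -0.71 (-0.99 to -0.42) and Ltbp1 -0.66 (-0.80 to -0.51). Fn1, the gene of fibronectin, had -0.44 (-0.57 to -0.30). Laminin receptors other than integrins, the dystroglycan group, had 1 of 12 lower, Utrn with -0.84 (-0.93 to -0.74), and a median of -0.36. Dag1, the gene of dystroglycan, had -0.29 (-0.44 to -0.14), Sgce -0.43 (-0.54 to -0.32) and Dmd 0.01 (-0.11 to 0.12). With TMM scaling the medians of the 4 lists lay between -0.25 and -0.09, and relative to genes of like span between -0.21 and 0.01.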

How the data were processed

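Single-cell RNA was measured in 1 NTD and 1 control library of mouse embryos with 10x Genomics 3' chemistry, per the labels' protocols. The deposited values are whole UMI counts per gene and barcode, made by the authors with Cell Ranger (7.0.1 in the file headers), and with STAR on mm10 per the submitters' processing notes. The annotation, and whether introns and strand were counted, were not given in the sources used here.

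Cells with 500 genes, 1000 UMIs and at most 10% mitochondrial UMIs were required, which removed 0 of 18572 control and 0 of 19056 NTD barcodes. Doublets were called per library with Scrublet in scanpy 1.11.5 at 1 score threshold, 0.34, which removed 2296 control and 2399 NTD barcodes. This threshold was chosen after seeing the data, since the automatic one marked 34.6% of control barcodes. Cells were clustered jointly (2000 variable genes without the 35, 30 components, Leiden resolution 1, leidenalg 0.10.2). A cluster was named where at least 3 markers of a class were present and led the next class by 2 or more. In addition, no other class could have more markers among the 10 top genes, which left clusters 9, 17 and 23 unnamed. Clusters of very low UMIs without a marker of their class among these genes were to stay unnamed. So were clusters with at least 3 pigment genes there, a rule added after the clusters were seen. UMIs were summed per class and library, scaled to CPM of all UMIs and given exact Poisson 95% intervals. Log2 ratios of NTD over control had 0.5 counts added, exact conditional binomial intervals and a minimum of 20 UMIs over both libraries. Called means 1.5-fold or more. TMM scaling used edgeR 4.0.16. Shares of cells had Clopper-Pearson intervals after thinning to 1589 UMIs, which left out 4215 control and 0 NTD cells.

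Intervals cover counting error only, and the labels do not say that the libraries hold separate animals of a known number. In simulated data for neural progenitor-like cells (16069 genes, 200 altered by known folds), at least 94% of altered genes were called at each fold, 4.79% of unaltered genes were called, and 95.8% of their intervals held the true value. Genes were named with full values when a class of 50 cells held 50 CPM, and of each partner list the 5 most abundant were named, except that a few genes are not reported here. The members, lists and alternatives were chosen with earlier results of these data known. Promoters came from RefSeq tables, gene spans from GENCODE M21.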

Additional observations from a re-analysis of the deposited data

Results flagged for a closer look

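Laminin and integrin chains with ratios of opposite sign between classes were looked at again, where each ratio was at least 1.5-fold and its counting interval lay on 1 side of 0. The differences between classes were not tested, since each class had 1 library per group, and log2 ratios below are NTD over control.

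Lama2 had 1.45 in endothelial-like and 2.09 in macrophage or microglia-like cells, against -2.16 in neural progenitor-like, -2.04 in cardiac muscle-like, -1.22 in epithelium-like and -0.69 in neuron-like cells. In the first 2 of these classes the 13 mesenchyme markers, all with UMIs, also summed higher in the NTD library, at 420.7 and 545 CPM in endothelial-like and 479 and 615 CPM in macrophage or microglia-like cells (control first), and their part in these ratios was not tested.

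Lama1 had 0.85 in endothelial-like cells, from 27 and 39 UMIs, against -1.34 in epithelium-like, -1.08 in neuron-like, -0.99 in neural crest or Schwann precursor-like and -0.76 in neural progenitor-like cells.

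Itga4 had 0.87 in endothelial-like cells, from 30 and 44 UMIs, against -1.72 in epithelium-like, -1.36 in macrophage or microglia-like, -0.59 in neural crest or Schwann precursor-like and -0.59 in neural progenitor-like cells. When each cell was thinned to 1 number of UMIs, 0 combinations of a gene and a class outside neural progenitor-like cells were called higher. Of those higher before, only Itga4 and Lama1 in endothelial-like cells still reached 20 UMIs, so the rest could not be called. Lama2, under that minimum, had 2.11 (0.30 to 4.76) in endothelial-like cells from 3 and 10 UMIs. In macrophage or microglia-like cells it had 0.17 (-2.61 to 2.44) from 5 and 3 UMIs.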

How the results depend on the processing

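No paired analysis was possible because each group had 1 library, and leaving out a replicate could not be run for the same reason. No direction reversed among the counts, medians and named progenitor-like ratios recomputed, apart from single genes near 0 (Itga2, Itga2b, Itga6 and Itgb3). In neural progenitor-like cells the 14 lower genes became 7 with TMM scaling, 9 with the set among the variable genes, 6 without clusters mostly of 1 library and 5 relative to genes of like genomic span. The alternative of like span was added after seeing the data. Of all genes, 17.3% were lower at first, 9.26% with TMM scaling and 13.3% without clusters mostly of 1 library. The share over all genes was not computed for the set among the variable genes or for like span. The median of -0.57 became -0.33, -0.41 and, for like span, -0.29, and was -0.38 with called doublets kept and -0.40 at Leiden resolution 2. Over all kept cells the 24 lower genes became 14 with TMM scaling, against 22.3% and 12.7% of all genes. For like span they became 10. In the other classes 56 of 142 combinations were lower and 7 higher. Of all genes, 14.8% to 26.9% were lower and 6.74% to 16.3% higher in these classes. A minimum of 50 UMIs gave 35 and 3, and like span gave 13 higher. No share over all genes was computed for like span or for 50 UMIs. Thinning gave 0 higher, but it put most of the higher combinations under 20 UMIs, where none could be called. Chain sets summed over all classes numbered 81 control and 50 NTD integrin pairs and 24 and 14 laminin trimers. At 50 CPM they were 42, 24, 5 and 1, at 10 CPM trimers were 54 and 38, and without clusters mostly of 1 library control trimers were 15. The stricter cell filter, the matched UMI floor and 1 count added moved none of these by more than 1.5 times, and where not shown the cause was not tested. Of the 21 genes named with full values, 17 to 20 control and 19 to 21 NTD genes kept their highest class under the alternatives. Depth limits Itgal, Itgb2 and Itgb7, which reached 20 UMIs in no class.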

Other observations

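Clusters without a class name held the set too. In cluster 17, which had 2 floor plate markers beside progenitor markers, Itgb8 was at 159 CPM (133 to 189) in control and 121.2 CPM (104 to 139.8) in NTD cells and Lama1 at 109 and 75.8 CPM. In cluster 7, with markers of neuroblasts, Itgb8 was at 128 and 82.3 CPM and Lama1 at 54.7 and 29.995 CPM, while Itga4 was at 9.32 CPM (5.22 to 15.4) in control and 21.4 CPM (15.9 to 28.2) in NTD cells. Cluster 23, with Eomes among its top genes, held Itga4 at 34.7 CPM (11.3 to 80.9) and 38.5 CPM (23.2 to 60.1), in 51 control and 169 NTD cells. In cluster 14, with 4 roof plate markers, Itgb8 was at 69.2 and 68.5 CPM and Lama2 at 32.6 and 7.96 CPM.

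Cluster 9, led by Wt1, Gata4 and Gata6 of visceral mesenchyme, held 1416 control and 80 NTD cells. Itga8, which pairs with Itgb1, was at 98.8 CPM (89.2 to 109) in its control and 57.7 CPM (34.2 to 91.1) in its NTD cells, Itga9 at 150.1 and 92.9 CPM, and Itgb1 at 206 and 211.4 CPM. Itga4 was at 17.4 CPM (13.5 to 22.005) in control and 57.7 CPM (34.2 to 91.1) in NTD cells.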
